A study of Mus musculus with 27 samples.

Results

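Immediate early genes are transcribed within minutes of a stimulus, without new protein synthesis, from promoters that latent factors already occupy. Here 10 of them, Fos, Fosb, Jun, Junb, Egr1, Egr2, Egr3, Atf3, Ier3 and Nr4a1, were followed by gene name through a series of mouse epididymal white adipose tissue taken during weight gain, weight loss and regain. They are 10 of the 43460 gene names in the table, and all 10 of them passed the filter on low counts that left 17821 names for testing. The series held 27 RNA-sequencing libraries of C57BL/6N mice, 3 in each of 9 groups. The initial group was sampled at 5 weeks of age, at the outset. Normal diet alone was given to control8, control12 and control16, named by their weeks on it, up to an age of 13, 17 and 21 weeks. High-fat diet (60% kcal fat) was given for 8 weeks to the gain8 group, aged 13 weeks. The loss group was 17 weeks old and had gone back to normal diet for 4 weeks after the high-fat diet, and the maintenance group was 21 weeks old after 8 weeks back on normal diet. The remaining groups were 21 weeks old: gain4 had been on the high-fat diet for 4 weeks, with its earlier diet not spelled out in the labels, and regain was fed it again for 4 weeks after weight loss. Each library came from lysate of 60 to 70 mg of the whole fat pad, so that every cell type of the tissue is in the mixture.

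The products of these genes are mostly transcription factors. Fos and Jun family proteins pair as the AP-1 dimer, Atf3 is a related bZIP factor that pairs with Jun proteins and can repress its own promoter, and the Egr proteins are zinc-finger factors. Mitogen-activated kinases act on them through SRF and its Elk partners at CArG boxes, and through CREB and ATF proteins at cAMP-response elements (CRE). Single pulses of their mRNA decay fast, and Fos, Jun, Egr1 and Atf3 are known to be induced by the dissection and handling of a tissue. In adipose tissue Egr2 and Atf3 are also known as genes of activated macrophages.

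Promoter sequence is printed for members whose mRNA moved together below (Fos, Egr2 and Atf3) and for Jun, which did not pass the test in the same comparison. The 140 bases before the RefSeq start site are given on the gene's own strand, 5′ to 3′, from the RefSeq promoter table of GRCm38.p6, which held 8 of the 10 members. Capitals mark the CRE core TGACG or its reverse complement CGTCA, the Jun/ATF site TGACATCA, and the CArG box, each searched on both strands.
Fos promoter, chr12:85473750-85473889, plus strand: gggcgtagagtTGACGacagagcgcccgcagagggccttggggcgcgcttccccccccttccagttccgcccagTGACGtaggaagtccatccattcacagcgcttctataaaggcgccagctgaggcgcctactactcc
Egr2 promoter, chr10:67537729-67537868, plus strand: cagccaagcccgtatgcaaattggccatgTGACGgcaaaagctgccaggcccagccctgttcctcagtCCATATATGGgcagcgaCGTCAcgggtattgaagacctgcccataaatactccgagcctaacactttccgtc
Atf3 promoter, chr1:191183334-191183473, minus strand: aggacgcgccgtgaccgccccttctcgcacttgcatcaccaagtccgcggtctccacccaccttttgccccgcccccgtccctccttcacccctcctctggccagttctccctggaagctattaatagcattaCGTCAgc
Jun promoter, chr4:95052223-95052362, minus strand: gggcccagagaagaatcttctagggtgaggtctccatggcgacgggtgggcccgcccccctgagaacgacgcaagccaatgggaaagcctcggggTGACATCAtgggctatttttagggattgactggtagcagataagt

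Counted back from the start site, the Fos window held the CRE core at −129 to −125 and at −66 to −62. The Egr2 window held it at −111 to −107 and, on the opposite strand, at −55 to −51, with a CArG box at −72 to −63 between them. Egr2 has several RefSeq starts, and the first of the most closely spaced ones was used. In the Atf3 window the only match was a CRE core at −7 to −3 on the opposite strand, within bases that GENCODE M21 already places in an exon. The Atf3 gene runs from 191170296 to 191218039 there, on the minus strand, so the RefSeq start used lies inside it. The Jun window held the Jun/ATF site at −45 to −38. Windows of other members were read and are not printed. The Nr4a1 window held the CRE core at −69 to −65 and at −40 to −36, both on the opposite strand. The Fosb window held it at −60 to −56 and the Junb window at −106 to −102, while the Ier3 window had no match. Nr4a1 and Ier3 were not called in loss below, and Fosb and Junb were. Over all 32851 promoter windows of this length, 12.8% held the CRE core, 2.28% the Jun/ATF site and 0.861% a CArG box. These matches describe letters in a window and were not tested as binding sites.

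The libraries held between 26479773 and 32728594 counts. Levels below are CPM, the share of counts scaled to a common library size, after TMM scaling, which corrects for differences in library composition, and all values by library are in the order of the replicates 1, 2 and 3. A gene was called where the adjusted p of edgeR's quasi-likelihood test, by Benjamini-Hochberg over all genes tested, was under 0.05. Libraries differed in make-up within groups: 1 maintenance library (replicate 3) held 8002 CPM of summed liver markers against 17.8 CPM in the lowest of its group, and Lars2, over 1000 CPM in some libraries of every group and about 100 to 200 CPM in the others, split the replicates of 8 of the 9 groups. Loss replicate 1 had the highest macrophage and the lowest adipocyte marker sum of all 27 libraries. Jun shares 232 exonic bases with the antisense gene Junos and Junb shares 173 with Prdx2 on the opposite strand. Without a known strand setting, their counts are partly uncertain (1048 counts for Junos against 53840 for Jun and 111997 for Prdx2 against 21254 for Junb, over all libraries). The labels do not say that replicates were separate animals, and the p-values then cover only the variation among these libraries, which may be technical.

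After 4 weeks back on normal diet, 7 of the 10 immediate early genes were higher than in age-matched controls and none was called lower. Atf3 and Egr2 rose most, 22.1-fold and 23.9-fold, followed by Fos (6.93-fold), Egr3 (4.72-fold), Fosb (3.64-fold), Junb (3.33-fold) and Egr1 (2.90-fold). Jun, Ier3 and Nr4a1 did not pass the test. Over all genes tested, 11.8% were called higher and 8.24% lower in the same comparison. The median log2 fold change of the 10 members was 1.80, against −0.04 over all genes. The members were chosen with earlier results of these data known, so setting them against all genes describes the set and does not test it. In 7 of the 10 every loss library was above every control12 library, a separation that 20% of all genes showed.

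**Figure D1:**
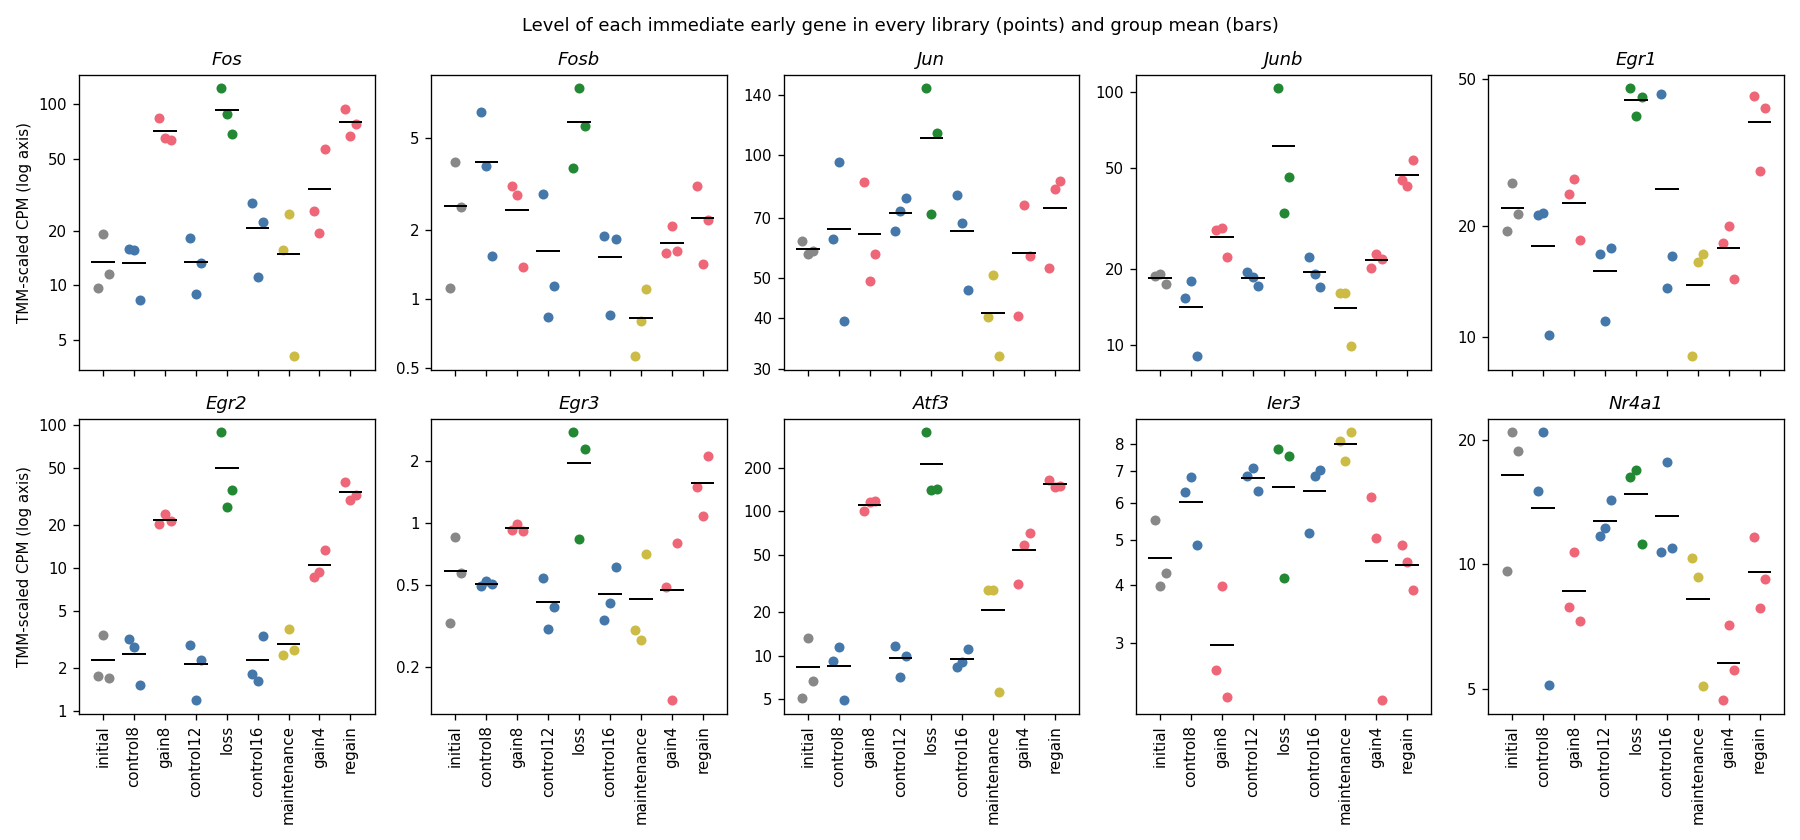
TMM-scaled CPM (log axis) of the 10 genes in each of 27 libraries, with groups on the horizontal axis in order of age, points for libraries and bars for group means (n = 3). The high-fat, loss and regain libraries of Egr2 and Atf3 stand above all 9 control libraries, while those of Jun, Ier3 and Nr4a1 do not separate in this way.

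Egr2, a zinc-finger factor with known parts in myelination and in macrophage activation, was at 89.4, 26.9 and 35.03 CPM in the loss libraries. The 3 control12 libraries were at 2.86, 1.18 and 2.27 CPM, so the lowest loss library was far above the highest control. Its log2 fold change was 4.58 ± 0.46 (SE, edgeR adjusted p = 1.56e-05), the second smallest p of all 17821 genes in this comparison. Atf3, a stress-induced bZIP factor that represses inflammatory genes, was at 354, 141 and 142 CPM in loss and 11.7, 7.14 and 9.94 CPM in control12. That is a log2 fold change of 4.47 ± 0.54 (SE, edgeR adjusted p = 3.07e-05). For both genes loss replicate 1 was more than double either of the others. Without it the log2 fold change was 3.87 for Egr2 and 3.88 for Atf3, and both were still called.

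Among the AP-1 genes, Fos was at 123, 88.5 and 68.7 CPM in the loss libraries against 18.3, 8.90 and 13.2 CPM in control12. The groups did not overlap, and the log2 fold change was 2.79 ± 0.51 (SE, edgeR adjusted p = 0.000692). Fosb, which encodes the Fos-family protein with the long-lived splice form delta-FosB, was low throughout, at 3.70, 8.23 and 5.66 CPM in loss and 2.86, 0.840 and 1.14 CPM in control12. Its log2 fold change was 1.86 ± 0.55 (SE, edgeR adjusted p = 0.0213), and the call ended without control12 replicate 2 (adjusted p = 0.0893), control12 replicate 3 (0.0908) or loss replicate 2 (0.0624).

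Junb, the Jun-family member that often restrains the activity of Jun, was at 104, 33.1 and 46.1 CPM in loss and 19.4, 18.6 and 17.1 CPM in control12. Each loss library was above each control, with a log2 fold change of 1.74 ± 0.30 (SE, edgeR adjusted p = 0.000425). Much of its size came from loss replicate 1, without which it was 1.11 (adjusted p = 0.0049). Jun, the founding partner of Fos in AP-1, was at 146, 71.9 and 113 CPM in loss and 65.2, 73.0 and 78.3 CPM in control12. Loss replicate 2 lay within the control range and the other loss libraries above it. The log2 fold change of Jun was 0.61 ± 0.31 (SE, edgeR adjusted p = 0.168), with a 95% interval of −0.0011 to 1.22, which does not show that Jun was level.

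Egr1, the most widely induced gene of the Egr family, was at 47.2, 39.6 and 44.6 CPM in loss and 16.8, 11.1 and 17.4 CPM in control12. The loss libraries lay close together and above the controls (log2 fold change 1.54 ± 0.37 (SE, edgeR adjusted p = 0.00573)). A control library of another age, control16 replicate 1, was as high as the loss libraries at 45.4 CPM. Egr3, another gene of that family, was near the limit of detection, at 2.76, 0.840 and 2.28 CPM in loss and 0.542, 0.305 and 0.389 CPM in control12. Its counts ran from 4 to 79 per library over the series, and its log2 fold change in loss was 2.24 ± 0.53 (SE, edgeR adjusted p = 0.00552). Without maintenance replicate 3, loss replicate 1 and control12 replicate 3 together, the calls of Egr3 (adjusted p = 0.0661) and Fosb (0.086) in loss ended.

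Ier3, a regulator of cell survival that is not a transcription factor, was at 7.79, 4.13 and 7.54 CPM in loss and 6.85, 7.10 and 6.34 CPM in control12. The control range lay inside the loss range (log2 fold change −0.06 ± 0.29 (SE, edgeR adjusted p = 0.906)). Nr4a1, the orphan nuclear receptor Nur77, was at 16.3, 17.0 and 11.2 CPM in loss and 11.7, 12.2 and 14.3 CPM in control12. These ranges overlapped too, with a log2 fold change of 0.22 ± 0.38 (SE, edgeR adjusted p = 0.719). When only the 6 libraries of both groups entered the fit, 4 of the 10 genes were called in loss. Over all genes that fit called 1096, against 3564 in the main fit. Fosb (adjusted p = 0.08), Junb (0.054) and Egr3 (0.0528) then lost the call.

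On the scale per transcript length, Atf3 mRNA was the most abundant of the 10 in loss, at 101 ± 53.2 FPKM (SD, n = 3) against 4.45 ± 1.10 FPKM in control12. In control12 Jun was the most abundant instead, at 22.8 ± 4.35 FPKM against 36.0 ± 11.5 FPKM in loss. Fos went from 5.69 ± 1.84 to 40.9 ± 9.55 FPKM and Egr2 from 0.620 ± 0.248 to 15.2 ± 9.48 FPKM. Egr3 and Fosb remained below 2.5 FPKM in every library of both groups. These FPKM are levels and carry no TMM scaling.

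Egr2 and Atf3 were then set against Fos and Jun within each library, as the log2 ratio of (CPM + 1). The log2 ratio of Egr2 to Jun was −0.70, −1.38 and −1.66 in the loss libraries and −4.10, −5.08 and −4.60 in control12, a difference of 3.35. For Atf3 to Jun it was 1.28, 0.96 and 0.33 in loss and −2.38, −3.19 and −2.86 in control12, a difference of 3.66. Both ratios were higher in every loss library than in any control12 library.

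Set against Fos the shift was smaller. The log2 ratio of Egr2 to Fos was −0.45, −1.68 and −0.95 in loss and −2.32, −2.18 and −2.12 in control12, a difference of 1.18. For Atf3 to Fos it was 1.52, 0.66 and 1.04 in loss and −0.60, −0.28 and −0.38 in control12, a difference of 1.496. In all 4 ratios every loss library was above every control12 library. The exact two-sided permutation p was 0.1 for each, raw and adjusted over the 4 ratios, which is the smallest that 3 against 3 libraries can give. With 0.1 in place of 1 added to the CPM, the differences against Fos were 1.60 for Egr2 and 1.54 for Atf3. Against Jun they were then 3.85 and 3.78. Which of Egr2 and Atf3 shifted more thus depended on the added constant. Fos itself moved against Jun: the log2 ratio of Fos to Jun was −0.25, 0.30 and −0.71 in loss and −1.78, −2.90 and −2.48 in control12. Here too every loss library was above every control12 library. A ratio within a library shows unequal change and not that Jun was constant. The part of tissue handling in the levels of the 10 members was not tested.

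Markers of macrophages moved with these genes. Of 16 macrophage markers, 14 were called higher in loss, with a median log2 fold change of 2.62. Their summed level was 16540.5, 5865 and 5958 CPM in the loss libraries and 1746, 1379 and 1802 CPM in control12, and none of the 16 was at 0. Of 14 markers of lipid-associated macrophages, 12 were called higher, while of 11 markers of resident macrophages 1 was called higher and 3 lower. Of 15 adipocyte markers 5 were called lower, and their summed level was 17619.8, 47166 and 29968 CPM in loss and 70379, 61127 and 41138 CPM in control12. Of 13 transcripts of the mitochondrial genome 9 were called lower in loss, as were 6 of 8 red cell markers, and their part in the result was not tested. Over all genes 11.8% were called higher and 8.24% lower in loss. In whole tissue, more cells of a type and more RNA per cell cannot be told apart.

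Divided by the summed macrophage markers of its own library, Egr2 was still higher in loss, at 5.41, 4.59 and 5.88 CPM per 1000 CPM of markers, against 1.64, 0.859 and 1.26 in control12. Atf3 was at 21.4, 24.0 and 23.9 in loss and 6.70, 5.18 and 5.51 in control12. For both genes all loss libraries were above all controls, with log2 differences of 2.12 and 2.002. Markers of lipid-associated macrophages had a median log2 fold change of 3.38 in loss, against 2.62 for the 16 markers in the sum. Macrophage genes can thus be higher on this scale too, and the part of the kind of macrophage was not tested. On this scale loss replicate 1 no longer stood apart: it lay within or just below the range of the other loss libraries for Egr2 and Atf3.

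Fos on the same scale was at 7.41, 15.1 and 11.5 in loss and 10.5, 6.45 and 7.32 in control12, and the groups overlapped (log2 difference 0.46, exact two-sided permutation p = 0.2, n = 3 against 3). Jun was lower in every loss library, at 8.81, 12.3 and 19.0 against 37.3, 53.0 and 43.4 in control12, a log2 difference of −1.80. Junb (−0.79), Egr1 (−0.79), Ier3 (−2.47) and Nr4a1 (−2.15) were likewise lower in every loss library on this log2 scale, and Fosb and Egr3 overlapped. The exact permutation p was 0.1, the smallest possible, for each gene whose groups did not overlap. Because the marker sum was higher in every loss library, a gene with level CPM is lower on this scale. Ier3, for one, had a log2 fold change of −0.06 in CPM. The lower values of Jun, Junb, Egr1, Ier3 and Nr4a1 here therefore do not show that these genes fell. How much of each change came from the number of macrophages was not tested. This scale was chosen after the data were seen.

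**Figure D2:**
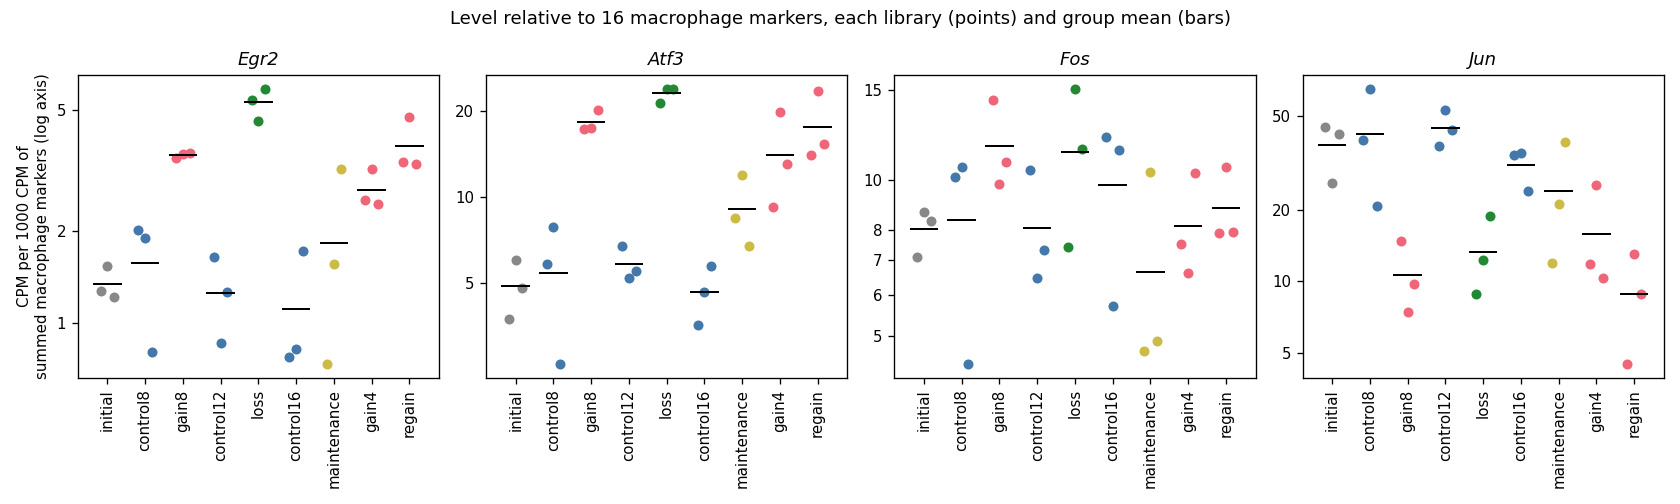
CPM of Egr2, Atf3, Fos and Jun per 1000 CPM of 16 summed macrophage markers (log axis) in every library, by group, with bars for group means (n = 3). The loss libraries of Egr2 and Atf3 lie above those of control12, those of Fos overlap with control12 and those of Jun lie below.

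At the end of 8 weeks of weight gain, 4 of the 10 genes were called higher than in age-matched controls and 1 lower. In gain8 against control8, Fos (log2 fold change 2.41 ± 0.50 (SE, edgeR adjusted p = 0.00212)), Junb (0.92 ± 0.30 (SE, edgeR adjusted p = 0.0307)), Egr2 (3.12 ± 0.43 (SE, edgeR adjusted p = 0.000134)) and Atf3 (3.71 ± 0.52 (SE, edgeR adjusted p = 0.000149)) were called higher. Ier3 was called lower (−1.01 ± 0.30 (SE, edgeR adjusted p = 0.0183)), and the other 5 did not pass. Over all genes 12% were called higher and 9.52% lower. Egr2 was at 20.2, 23.7 and 21.2 CPM in gain8 and 3.18, 2.80 and 1.51 CPM in control8. For Atf3 the levels were 100.4, 116 and 119 CPM in gain8 and 9.13, 11.5 and 4.90 CPM in control8. The gain8 libraries of both genes lay close together, well above their controls. Fos was at 83.5, 65.2 and 63.8 CPM in gain8 and 15.9, 15.6 and 8.33 CPM in control8, and Ier3 at 2.63, 3.98 and 2.30 against 6.32, 6.82 and 4.87 CPM. Of 16 macrophage markers 15 were called higher in gain8 (median log2 fold change 2.24), as were 13 of 14 markers of lipid-associated macrophages, and their part in the result was not tested. The calls of Junb and Ier3 each ended without any of several single libraries. For Junb these were control8 replicates 1 (adjusted p = 0.0597) and 3 (0.136) and gain8 replicates 1 (0.0733) and 2 (0.0977), and the call also ended in plain CPM (0.0558) and with limma on log2(FPKM + 1) (0.0511). For Ier3 they were control8 replicates 1 (0.0543) and 2 (0.0643) and gain8 replicates 1 (0.0631) and 3 (0.0969).

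Set directly against gain8, all loss libraries were above all gain8 libraries for 7 of the 10 genes, against 7.87% of all genes. None of the 10 passed the adjusted test, in which 0.0786% of all genes were called. An unadjusted p under 0.05 was found for 7 of the 10 and for 2257 of all 17821 genes. DESeq2 called 2 of the 10, and edgeR called 3 without loss replicate 2, with the shares over all genes in those settings not given here. The largest log2 differences were Fosb 1.27 ± 0.54 (SE, edgeR adjusted p = 0.335), Egr2 1.22 ± 0.40 (SE, edgeR adjusted p = 0.239) and Junb 1.198 ± 0.30 (SE, edgeR adjusted p = 0.123). Whether the effect against age-matched controls differed between loss and gain8 was tested as a difference of differences. No gene of the 17821 passed with edgeR (0%, with 1231 at an unadjusted p under 0.05), DESeq2 called none of the 10, and 4 of the 10 had an unadjusted p under 0.05, with Fosb the furthest apart at 2.56 ± 0.76 (SE, edgeR adjusted p = 0.583). Fosb was at 3.09, 2.82 and 1.38 CPM in gain8 and 6.51, 3.78 and 1.54 CPM in control8, where control8 replicate 1 was the highest.

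After 8 weeks back on normal diet none of the 10 genes was called. In maintenance against control16 edgeR called no gene at all (0%), with 3633 genes and 3 of the 10 at an unadjusted p under 0.05, and DESeq2 called none of the 10 either. Egr2 was at 2.45, 3.73 and 2.65 CPM in maintenance and 1.80, 1.60 and 3.34 CPM in control16, and the groups overlapped. Atf3 was at 28.3, 28.4 and 5.61 CPM in maintenance and 8.28, 9.04 and 11.1 CPM in control16 (log2 fold change 1.13 ± 0.48 (SE, edgeR adjusted p = 0.19)). Maintenance replicates 1 and 2 were above all controls for Atf3 and replicate 3 below them. Replicate 3 is the library with liver markers and the lowest macrophage marker sum (3349, 2388 and 831 CPM in replicates 1, 2 and 3). Fos was at 15.7, 24.8 and 4.06 CPM in maintenance and 28.4, 11.2 and 22.3 CPM in control16. Without replicate 3 the log2 fold change of Atf3 was 1.62 (adjusted p = 0.265).

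From loss to maintenance, 8 of the 10 genes fell, against 12.9% of all genes called lower. The falls in log2 were −4.09 ± 0.45 for Egr2, −3.35 ± 0.51 for Atf3, −2.83 ± 0.58 for Fosb, −2.65 ± 0.51 for Fos, −2.21 ± 0.53 for Egr3, −2.13 ± 0.31 for Junb, −1.66 ± 0.37 for Egr1 and −1.42 ± 0.32 for Jun (SE), with adjusted p from 6.97e-05 to 0.00532. Jun was at 40.1, 50.8 and 32.2 CPM in maintenance, below every loss library. Ier3 and Nr4a1 did not pass. Markers of other cells moved between the same groups: 14 of 16 macrophage markers were called lower in maintenance (median log2 fold change −2.42), as were 11 of 14 of lipid-associated macrophages, while 5 of 15 adipocyte, 11 of 12 liver and 8 of 8 red cell markers and 8 of 13 transcripts of the mitochondrial genome were called higher. The part of these markers in the fall was not tested, and 11.6% of all genes were called higher. These groups differ in age, and with only their 6 libraries in the fit none of the 10 was called. When the change of the effect against age-matched controls was tested instead, 6 of the 10 were called lower in maintenance than in loss (5.66% of all genes), and Jun (adjusted p = 0.0727) and Egr3 (0.0549) missed the threshold.

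**Figure D3:**
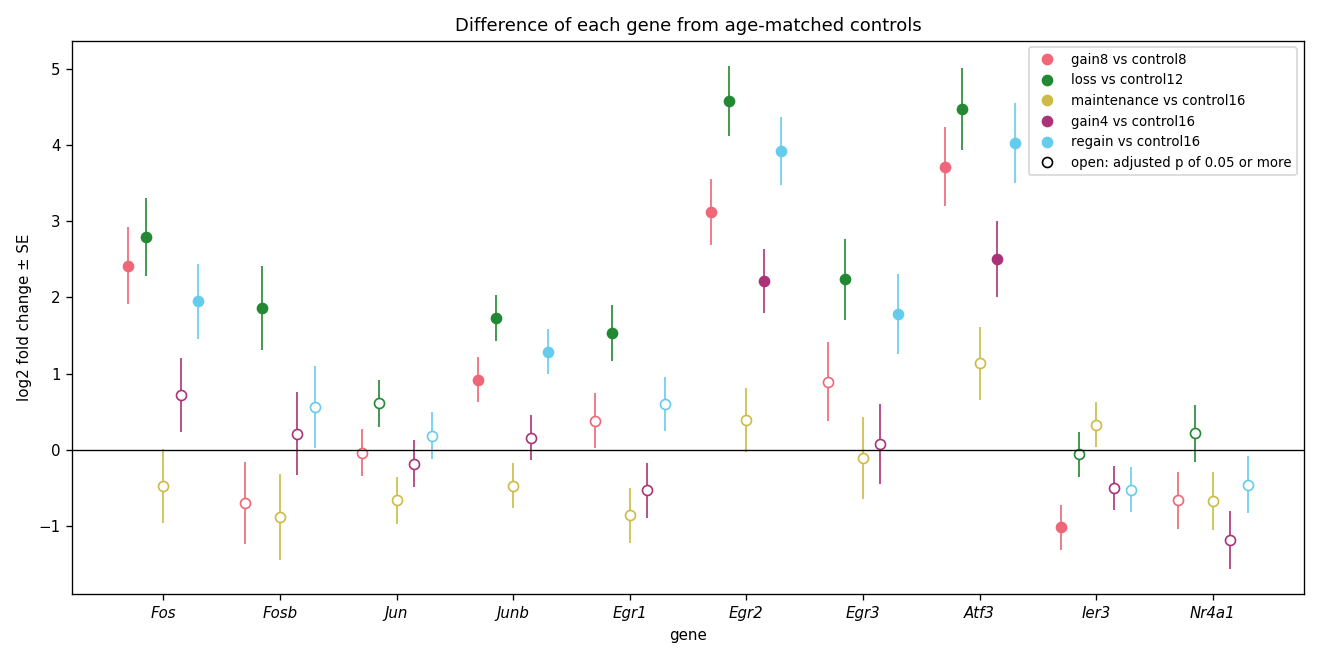
Log2 fold change ± SE of each gene against age-matched controls (3 libraries against 3) in 5 comparisons, with filled points for an adjusted p under 0.05 and open points otherwise. Egr2 and Atf3 are filled in 4 of the 5 comparisons and open in maintenance, while Jun and Nr4a1 are open in all 5.

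Several of the genes were above their controls after a second high-fat period that followed weight loss. Regain was not tested against loss. In regain against control16, 5 of the 10 were called higher and none lower, against 12.5% and 9.23% of all genes: Fos (1.95 ± 0.49 (SE, edgeR adjusted p = 0.00755)), Junb (1.29 ± 0.30 (SE, edgeR adjusted p = 0.00391)), Egr2 (3.91 ± 0.45 (SE, edgeR adjusted p = 1.98e-05)), Egr3 (1.78 ± 0.52 (SE, edgeR adjusted p = 0.0188)) and Atf3 (4.03 ± 0.53 (SE, edgeR adjusted p = 4.1e-05)). Egr2 was at 39.9, 29.8 and 32.3 CPM and Atf3 at 166, 148 and 149 CPM in the regain libraries. Fos was at 93.6, 67.1 and 77.6 CPM and Junb at 44.97, 42.5 and 54.2 CPM, all above every control16 library. Of 16 macrophage markers 15 were called higher in regain (median log2 fold change 2.68), as were 12 of 14 of lipid-associated macrophages, and 5 of 15 adipocyte markers and 5 of 13 transcripts of the mitochondrial genome were called lower. Their part in the result was not tested. Egr1 was at 44.9, 28.2 and 41.8 CPM in regain and 45.4, 13.6 and 16.6 CPM in control16, of which replicate 1 stood out. Without that library Egr1 was called too, at 1.35 (adjusted p = 0.00761). The call of Egr3 ended without control16 replicate 1 (adjusted p = 0.0792) or 2 (0.0677) or regain replicate 3 (0.091).

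In gain4, of the same age and with 4 weeks of high-fat diet, 2 of the 10 genes were called, Egr2 (2.21 ± 0.42 (SE, edgeR adjusted p = 0.0111)) and Atf3 (2.50 ± 0.50 (SE, edgeR adjusted p = 0.013)), both higher, against 3.8% of all genes. Egr2 was at 8.63, 9.44 and 13.3 CPM and Atf3 at 31.4, 58.5 and 71.3 CPM in gain4. All of these libraries were above the controls. Fos was at 25.7, 19.5 and 56.4 CPM, of which replicate 3 alone was above all control16 libraries (0.72 ± 0.48, adjusted p = 0.372). Nr4a1 was at 4.70, 7.13 and 5.55 CPM in gain4 and 10.7, 17.7 and 10.9 CPM in control16, lower in every gain4 library (−1.18 ± 0.38, edgeR adjusted p = 0.0677). DESeq2 called it lower (adjusted p = 0.0254), as did edgeR with 3 libraries left out (0.0492; maintenance replicate 3, loss replicate 1 and control12 replicate 3). Of 16 macrophage markers 4 were called higher in gain4. Both calls of Egr2 and Atf3 ended without control16 replicate 1 (Egr2 2.09, adjusted p = 0.0944, and Atf3 2.42, 0.0955) or replicate 2 (0.0932 and 0.0942). Of all genes, 0 were called without control16 replicate 1 and 3 without replicate 2. The comparisons of maintenance, gain4 and regain share the control16 libraries.

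Regain and gain4 were also compared directly. Egr2 was called higher in regain by 1.70 ± 0.40 (SE, edgeR adjusted p = 0.0299) and Junb by 1.13 ± 0.30 (SE, edgeR adjusted p = 0.0368), 2 of the 10 against 4.12% of all genes. Egr1, Egr3 and Atf3 had adjusted p of 0.0642, 0.0553 and 0.0594. For 7 of the 10 all regain libraries were above all gain4 libraries (14.6% of all genes). The count moved with single libraries: it was 0 without gain4 replicate 1 or 2 or regain replicate 3, 1 without regain replicate 2 and 5 without gain4 replicate 3. Macrophage markers moved here too, with sums of 11821, 6311 and 9749 CPM in regain and 3406, 2955 and 5449 CPM in gain4. Their part in the difference was not tested.

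Ordered by group mean, Egr2 ran from loss (50.5 CPM) to regain (34.0), gain8 (21.7), gain4 (10.5) and maintenance (2.95). The order was the same for Atf3: 212, 155, 112, 53.7 and 20.8 CPM. For both genes loss and regain overlapped, while regain with gain8, gain8 with gain4 and gain4 with maintenance did not. The maintenance libraries overlapped with the 9 controls, which ran from 1.18 to 3.34 CPM for Egr2 and from 4.90 to 11.7 CPM for Atf3. Relative to macrophage markers, Egr2 and Atf3 were also above their controls in every library of gain8 (1.29 and 1.90 in log2), regain (1.87 and 1.92) and gain4 (1.39 and 1.56). In maintenance Atf3 was above control16 in every library on this scale (0.95, exact two-sided permutation p = 0.1, the smallest possible), and Egr2 overlapped with control16 (0.58). Fos overlapped with its controls in all 5 comparisons.

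Beyond the 10, 41 of 42 other immediate early genes could be tested. In loss 10 of these 41 were called higher and 1 lower, with a median log2 fold change of 0.35. Over all genes 11.8% were called higher and 8.24% lower. Plk2, a polo-like kinase of stressed and dividing cells, was at 180.2, 49.8 and 91.6 CPM in loss and 16.6, 25.5 and 23.6 CPM in control12 (log2 fold change 2.29 ± 0.42 (adjusted p = 0.000714)). Dusp5, which inactivates ERK in the nucleus, was at 19.1, 8.57 and 8.70 and 2.75, 1.22 and 2.90 CPM (2.40 ± 0.48 (adjusted p = 0.00149)). Fosl1, the Fos-family gene of Fra-1, was at 14.7, 6.05 and 6.65 and 3.02, 4.01 and 2.75 CPM (1.49 ± 0.35 (adjusted p = 0.00521)). Loss replicate 1 was the highest for all 3 genes, and the groups did not overlap. Per1, a clock gene, was the 1 that fell (−1.15 ± 0.30 (adjusted p = 0.00932)). In gain8 the same list gave 7 higher and 3 lower, in maintenance 0 and 0, in gain4 0 and 2, and in regain 3 and 6. The shares over all genes were 12% higher and 9.52% lower in gain8, and 0% in maintenance. They were 3.8% and 2.02% in gain4, and 12.5% and 9.23% in regain.

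Of 17 upstream regulators, the kinases and factors that drive these promoters, 4 were called higher in loss and none lower (median 0.25). The shares over all genes in loss, for this and the following lists, were 11.8% higher and 8.24% lower. Rps6ka1, the kinase RSK1, rose by 1.34 ± 0.23 (adjusted p = 0.000407), Mapk14, the kinase p38α, by 0.48 ± 0.14 (adjusted p = 0.0205) and Mkl1, a coactivator of SRF, by 0.73 ± 0.23 (adjusted p = 0.0273). Of 12 partners and repressors of AP-1 and Egr factors, 4 were called higher and 1 lower (median 0.36). Nab2, a corepressor that Egr factors induce and bind, was at 57.3, 32.8 and 39.5 CPM in loss and 15.8, 17.2 and 14.2 CPM in control12 (1.46 ± 0.21 (adjusted p = 8.51e-05)). Batf, a partner of Jun proteins (1.503 ± 0.42 (adjusted p = 0.016)), rose as well. Of 14 heat-shock genes 4 were called higher and none lower (median 0.38), among them Hsph1 (1.49 ± 0.36 (adjusted p = 0.00599)), Hsp90aa1 (0.52 ± 0.14 (adjusted p = 0.0114)) and Hspa5 (1.01 ± 0.28 (adjusted p = 0.0149)), the chaperone of the endoplasmic reticulum. In gain8, 7 heat-shock genes were called higher and 1 lower, against 12% and 9.52% of all genes.

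Within groups the members differed in how much replicates varied. The SD of log2(CPM + 1) around group means was 0.62 for Fos and 0.61 for Atf3, larger than in 92.9% and 92.6% of genes, against 0.43 for Egr2 and 0.40 for Jun. The median over all genes was 0.26. Differences between groups made up 95.1% of the variance of Egr2, 92.7% of that of Atf3, 83.3% of that of Fos and 52.2% of that of Jun. A smaller part was seen in 99.96%, 99.6%, 93.7% and 46.4% of genes, in the same order. Over the 9 control libraries Fos ran from 8.33 to 28.4 CPM and Egr1 from 10.1 to 45.4 CPM.

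Deviations from group means were then correlated for all 45 pairs of members over 27 libraries. Of these 39 were positive, and 6 passed Benjamini-Hochberg adjustment of the permutation p over the 45. Fos and Atf3 gave Pearson's r = 0.78 and Spearman's rho = 0.73 (permutation p = 0.00166 and 0.0019, adjusted p = 0.0283 for r), and r was 0.65 without the 2 libraries farthest from the median of Fos. Jun and Junb gave Pearson's r = 0.70 and Spearman's rho = 0.63 (permutation p = 0.00269 and 0.009, adjusted p = 0.0283 for r), and r without such a pair of libraries was 0.63. For Egr2 and Atf3 the values were Pearson's r = 0.68 and Spearman's rho = 0.78 (permutation p = 0.00052 and 0.00033, adjusted p = 0.0234 for r), with r at 0.62 without 2 libraries. The other pairs were Atf3 with Nr4a1 (r = 0.64), Fosb with Egr1 (r = 0.60) and Fos with Egr2 (r = 0.58). Libraries that were high for their group in Fos thus tended to be high in Atf3 and Egr2, and r of Fos with Jun was 0.27 (adjusted permutation p = 0.462). The summed macrophage markers, treated in the same way, gave r = 0.78 with Atf3, 0.72 with Fos, 0.57 with Egr2 and 0.16 with Jun. None of the 20 relations with macrophage or adipocyte sums passed the adjustment (adjusted permutation p = 0.0764 for Fos and 0.094 for Atf3).

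**Figure D4:**
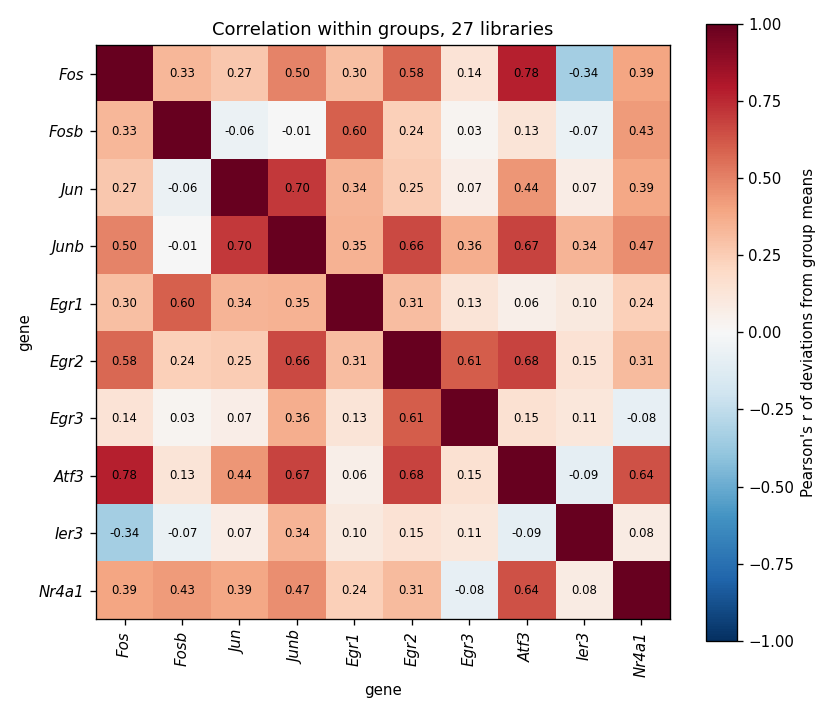
Pearson's r between the members' deviations from their group means, log2(CPM + 1), over 27 libraries. Fos and Atf3 have the highest value (0.78), followed by Jun and Junb (0.70), and Fos and Ier3 have the lowest (−0.34).

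Among 10834 genes with a mean of at least 5 CPM, those with the pattern most like Egr2 over the 27 libraries were Wfs1 (Pearson's r = 0.98), Basp1, Myo1f, Pld3 and Hk3. For Atf3 they were Arhgap25 (r = 0.99), Pld3, Slc15a3, Cd68 and Myo1f, of which Cd68 is a lysosomal macrophage marker. For Fos they were Pltp (r = 0.96), Mpeg1, Pik3r5, Cd300lb and C5ar1, where Mpeg1 is again a macrophage marker. All 13 of these genes were called higher in loss, against 11.8% of all genes. Jun had another set, Erf (r = 0.92), Pxn, Zyx, Nck2 and Gpr107, of which Pxn and Zyx encode focal adhesion proteins, and none of the 5 was called in loss (adjusted p from 0.238 to 0.378). The points share their libraries and groups, so these values only describe likeness. Both sets were chosen over libraries that include loss and control12. Whether their genes were called in loss thus follows from that choice and is no separate result.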

How the data were processed

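Libraries of total RNA, 27 in all, were prepared with a TruSeq kit according to the labels' protocols. The submitters' processing notes name Trimmomatic 0.33, TopHat2 2.0.13 and HTSeq 0.6.0, with mm10/GRCm38 as genome. The annotation and the strand setting are not given in the sources used here. Raw read counts per gene were deposited by the authors in 43616 rows with 43460 names, each name used once. The deposited FPKM are scaled by exonic length and by the sum over protein-coding genes, a relation read from the values, and are used for levels between genes and as an alternative input.

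Names were kept by filterByExpr (minimum count 10, minimum total 15), which left 17821. TMM factors ran from 0.814 to 1.11. One edgeR 4.0.16 quasi-likelihood model in R 4.3.3 held a mean for each of 9 groups, with Benjamini-Hochberg adjustment within each comparison. The SE comes from the fold change and its F statistic. Data were simulated for loss against control12 with 17821 genes, of which 50 were changed at each fold. Of the 2-fold changes 36% were recovered, and of the 4-fold changes 76%. In the real comparison 3564 genes were called, so the adjustment was stricter in the simulation and these shares need not hold for the data.

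The members and gene lists were chosen with earlier results of these data known. Named genes are the 10 members, the 5 genes most correlated with each of Egr2, Atf3, Fos and Jun, and the 3 genes of each list with the smallest adjusted p in loss, besides Per1, chosen after its value was seen. A gene that this rule names is not reported here. Alternatives were RLE scaling, plain CPM, no filter, a replicate block, a Lars2 term (over 1000 CPM), 3 libraries out (maintenance 3, loss 1, control12 3), only the groups compared, single libraries out, DESeq2 1.42.0 and limma 3.58.1 on log2(FPKM + 1) and log2(FPKM + 0.1). Levels relative to macrophage markers, the change of effect from loss to maintenance and regain against gain4 were added after seeing the data. Replicate numbers did not pair the samples. Replicates differed beyond counting noise (chi-square per degree of freedom 11.9 to 538). Promoter sequences are RefSeq's on GRCm38.p6.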

Additional observations from a re-analysis of the deposited data

Results flagged for a closer look

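For 6 of the 10 genes the effect of the diet history against age-matched controls differed between loss and maintenance, by edgeR's test of the difference itself. Over all genes 5.66% were called lower in maintenance than in loss by this test and 3.31% higher. The maintenance effect minus the loss effect was −4.19 ± 0.60 (SE, edgeR adjusted p = 0.00169) for Egr2 and −3.34 ± 0.68 (SE, edgeR adjusted p = 0.00629) for Atf3. It was −3.26 ± 0.70 (SE, edgeR adjusted p = 0.00753) for Fos, −2.74 ± 0.78 (SE, edgeR adjusted p = 0.0328) for Fosb, −2.20 ± 0.42 (SE, edgeR adjusted p = 0.00484) for Junb and −2.39 ± 0.51 (SE, edgeR adjusted p = 0.00774) for Egr1. For Fos, Fosb, Junb and Egr1 the log2 fold change was positive in loss and negative, though not called, in maintenance (−0.47 ± 0.48, −0.88 ± 0.56, −0.47 ± 0.30 and −0.86 ± 0.36). For Egr2 and Atf3 it was positive in both.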

How the results depend on the processing

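Under 16 alternatives each, Egr2, Atf3, Fos and Egr1 remained called in loss, and Egr2, Atf3 and Fos in gain8 and in regain. Fitting only the groups compared gave 4 called members in loss in place of 7, and 0 in gain4, from loss to maintenance, in the change of effect from loss to maintenance and in regain against gain4. That fit has fewer samples. It called 1096 of all genes in loss, in place of 3564, and 0 in gain4. Leaving out single libraries gave 3 to 5 called members in gain8, 0 to 2 in gain4, 0 to 3 in loss against gain8 and 0 to 5 in regain against gain4. DESeq2 called 2 in loss against gain8. In regain against gain4, in place of 2, the count was 1 with no filter, 5 without the 3 libraries, 5 with DESeq2, 5 with limma on log2(FPKM + 1) and 4 on log2(FPKM + 0.1). Calls over all genes moved as well. In gain8 they ran from 2129 to 3289 without single libraries, against 3833 in the main fit. In loss they were 1185 without loss replicate 1 and 4406 without loss replicate 2. For loss against gain8 and regain against gain4 the counts over all genes in these settings are not given here. The cause of these shifts was not tested.

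The sign turned for members that were not called. In plain CPM Ier3 in loss was 0.0159. Over left-out libraries it ran from −0.21 to 0.18. Over the same left-out libraries Jun ran from −0.30 to 0.34 in gain8, −0.0327 to 0.39 in regain and −0.43 to 0.0598 in gain4, Fos from −1.05 to 0.00992 and Egr3 from −0.62 to 0.16 in maintenance, and Fosb from −0.0762 to 0.40, Egr1 from −0.84 to 0.22 and Egr3 from −0.52 to 0.51 in gain4. Egr3 in gain4 was also −0.00659 on log2(FPKM + 1) and −0.13 on log2(FPKM + 0.1).

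With the replicate block the counts of called members were 7 in loss, 5 in gain8, 0 in maintenance, 5 in regain, 2 in gain4 and 8 from loss to maintenance, as without it, and Egr3 in gain4 was −0.00608. Same-numbered samples correlated between −0.23 and 0.33, and in 0 of 7 comparisons were all pairs above 0.1. Counts per library were as low as 4 for Egr3 and 15 for Fosb.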

Other observations

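Genes of the integrated stress response, in which ATF4 drives Atf3, went in both directions. Of 15 tested in loss, 2 were called higher and 5 lower, with a median log2 fold change of −0.38. The shares over all genes were 11.8% and 8.24%. Asns, asparagine synthetase and a known ATF4 target, was at 23.1, 36.8 and 39.4 CPM in loss and 74.3, 72.6 and 61.3 CPM in control12 (−1.07 ± 0.26 (adjusted p = 0.00619)). Sesn2, a stress-induced inhibitor of mTORC1 signalling, was at 20.1, 73.7 and 25.9 and 142, 142 and 81.4 CPM (−1.61 ± 0.42 (adjusted p = 0.0105)). Both were lower in every loss library. Gdf15, a stress-induced cytokine, was higher, at 47.7, 7.16 and 7.67 against 1.55, 2.67 and 2.30 CPM (3.26 ± 0.71 (adjusted p = 0.00309)), and loss replicate 1 held most of that level. In gain8 the list gave 3 higher and 1 lower, in regain 2 and 4. All genes gave 12% and 9.52% in gain8 and 12.5% and 9.23% in regain.

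The initial libraries, at 5 weeks of age, entered no comparison. Their levels were 1.74, 3.39 and 1.68 CPM for Egr2, 5.10, 13.3 and 6.65 CPM for Atf3, 9.70, 19.1 and 11.6 CPM for Fos and 61.5, 57.3 and 58.1 CPM for Jun. The highest of these libraries was just above the highest of the 9 control libraries for Egr2 and Atf3 and within their range for Fos and Jun.

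Of 9 mast cell markers 4 were called higher in loss, against 11.8% of all genes. Their sums were 353, 85.2 and 61.7 CPM in loss and 35.7, 34.9 and 94.8 CPM in control12, and loss replicate 1 was the highest.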
